A study of Mus musculus with 15 samples.

Results

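The genes described are 10 members of the mouse Notch pathway: the receptors Notch1, Notch2, Notch3 and Notch4, the ligands Jag1, Jag2, Dll1 and Dll4, and the target genes Hes1 and Hey1. They were chosen by symbol from the 51826 genes of both deposited expression tables. Notch receptors sit on the cell surface and are switched on by ligands of the Jagged and Delta-like families on a neighboring cell. Cleavage of the bound receptor by a metalloprotease and then by gamma-secretase frees its intracellular domain, which joins the DNA-binding protein RBPJ and a Mastermind coactivator in the nucleus and turns on repressors of the Hes and Hey families. In the mammary gland the pathway is known for the choice between luminal and basal fates, and in blood vessels, where Notch4 and Dll4 are typical of endothelium and Notch3 of the mural cells around it, for artery and sprout formation.

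RNA-seq libraries came from mouse mammary tissue, 15 libraries of 13 mice. The Trim24COE mice carry MMTV-Cre and a lox-stop-lox transgene that makes Flag-tagged mouse Trim24 once Cre has removed the stop. The study used MMTV-Cre to express the transgene in mammary epithelial cells. Whether Cre also acted in other cells of the tissue was not tested here. Their tumors, taken from virgin females once palpable, were labelled carcinosarcoma in mice 64, 567 and 897 and carcinoma in mice 89, 273_5 and 3956. The control glands, from mice 133, 392, 417_3 and 517_3, carry the same Cre without the transgene and were tumor free. The 3 non-TRIM24 tumors (219, FVB001 and FVB002) arose spontaneously, and their genotype is labelled unknown. The labels give FVB as the strain of the samples and the design text FVB/129. All non-TRIM24 tumors were sequenced in batch 2, together with repeat libraries of gland 133 and tumor 3956, and all other libraries in batch 1. Values are TPM, a measure of transcript abundance, which are scaled for gene length and have the same sum in each library, so that levels of different genes can be set side by side but the sequencing depth is unknown.

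Several facts of the libraries bear on the results. Trim24 itself lay between 10.6 and 24.08 TPM in the 6 Trim24COE tumors and between 14.54 and 22.41 TPM in the 4 control glands, so these ranges overlapped. By class it was 13.91 to 24.08 TPM in the 3 carcinomas and 10.6 to 14.54 TPM in the 3 carcinosarcomas, which reached no higher than the lowest gland, so that Trim24 RNA in the libraries labelled carcinosarcoma went against their label of overexpression. The groups are called here by their labels throughout. Other assays of Trim24 RNA and protein made in the study were not analysed here. The control glands differed among themselves. The summed TPM of 8 adipocyte markers was 25392 in gland 133 and 37977 in gland 392, against 1730 in gland 417_3 and 1923.5 in gland 517_3. The summed TPM of 5 basal epithelial markers ran the other way, at 112.64 and 167.96 in glands 133 and 392 and at 2044.5 and 2151.8 in glands 417_3 and 517_3. That of 7 luminal markers split as the basal sum did, at 860.17 and 1341.6 in glands 133 and 392 and at 4247.4 and 4439.7 in glands 417_3 and 517_3. No marker of the lists used was listed at 0 in any first library of batch 1. The lowest values, 0.06 TPM for Trp63 and Oxtr and 0.11 TPM for Pck1, were under the 1 TPM of the filter used below. Such values do not show that each cell type was present in every gland and tumor. These are bulk samples, in which fewer cells of a type and less RNA per cell cannot be told apart.

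The promoter of Notch3 is shown because Notch3 was the receptor that passed the test below, and that of Hes5, another Notch target, because it holds a pair of RBPJ motifs and serves as the comparison. Each is the 250 bases before a RefSeq start on GRCm38.p6, written 5′ to 3′ on the strand of the gene. Capitals mark TGGGAA, the core of the RBPJ motif, on either strand.
Notch3, chr17:32166891-32167140, minus strand: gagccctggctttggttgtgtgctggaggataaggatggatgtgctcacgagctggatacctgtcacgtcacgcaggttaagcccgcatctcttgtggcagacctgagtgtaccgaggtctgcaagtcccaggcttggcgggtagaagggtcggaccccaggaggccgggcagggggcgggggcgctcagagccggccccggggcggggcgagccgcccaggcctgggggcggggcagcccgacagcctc
Hes5, chr4:154960673-154960922, plus strand: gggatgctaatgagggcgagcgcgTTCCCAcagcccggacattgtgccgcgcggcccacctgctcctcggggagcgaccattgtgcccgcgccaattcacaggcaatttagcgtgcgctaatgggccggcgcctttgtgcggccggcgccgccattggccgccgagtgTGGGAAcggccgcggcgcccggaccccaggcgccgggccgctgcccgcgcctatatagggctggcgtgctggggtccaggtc
The Hes5 window holds the motif 2 times, from 226 to 221 bases before the start on the opposite strand and from 82 to 77 bases before it on the strand of the gene, both within the longer form GTGGGAA. The RefSeq promoter table matched 8 of the 10 members, with 9 starts, and lacked Hes1 and Hey1. The motif TGGGAA was in 0 of these 9 windows on either strand and in 21.6% of all 32851 windows of that length. Motif matches describe these windows only. Hes5 was listed between 0 and 0.25 TPM in all libraries and was not tested.

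In the GENCODE vM21 annotation of GRCm38, the receptors lie on chromosome 2 (Notch1, 26457903 to 26516663), chromosome 3 (Notch2, 98013527 to 98150361) and chromosome 17 (Notch3, 32120820 to 32166852, and Notch4, 34564268 to 34588503). Among the ligands, Jag1 (137081456 to 137116644) and Dll4 (119325784 to 119335962) are on chromosome 2, Jag2 (112907819 to 112929776) is on chromosome 12 and Dll1 (15367354 to 15376872) is on chromosome 17. The targets are on chromosome 16 (Hes1, 30064384 to 30067796) and chromosome 3 (Hey1, 8663359 to 8667256). Genes on the opposite strand overlap Notch1, Notch3, Notch4, Dll1 and Dll4. The labels and the study differ on whether the library kit kept the strand, so reads of these genes and their partners may not have been told apart.

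Across the 4 groups the same gene led. Hes1, a repressor that keeps progenitor cells undifferentiated, had the highest median of the 10 members in every group, at 229.57 TPM in control glands, 66.24 TPM in carcinosarcomas, 69.35 TPM in carcinomas and 34.68 TPM in non-TRIM24 tumors. Below it the order changed. In control glands Hey1 came next with a median of 74.96 TPM and Notch2 was last with 6.625 TPM, whereas in carcinosarcomas Jag1 came next with 19.66 TPM and Notch3 was last with 2.33 TPM. In carcinomas Jag1 again came next, at 26.39 TPM, and Notch3 was last, at 3.48 TPM. In non-TRIM24 tumors Dll1 came next, at 29.84 TPM, and Jag2 was last, at 2.94 TPM. The ranges of neighbors in these orders overlapped, with the exceptions of Hes1, whose lowest carcinosarcoma, at 32.23 TPM, exceeded the highest value of every other member in that group (21.41 TPM, Jag1) and whose lowest carcinoma, at 51.02 TPM, exceeded that of every other member in its group (37.13 TPM, Dll1), of Notch1 and Notch4 in carcinomas, at 11.23 TPM or more and 10.65 TPM or less, and of Notch1 and Notch2 in non-TRIM24 tumors, at 4.47 TPM or more and 3.55 TPM or less.

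Repeat libraries of 2 mice show how far these levels moved between libraries. The first library was in batch 1 and the repeat in batch 2, so technical error and batch cannot be told apart. Over the 10 members, the 2 libraries of gland 133 differed by 1.01-fold (Notch2) to 1.73-fold (Hes1, 34.81 TPM first and 20.14 TPM on repeat). For tumor 3956 the ratio ran from 1.04-fold (Notch3) to 1.54-fold (Jag1, 26.65 TPM first and 17.33 TPM on repeat). The spread among glands was larger for most members, with a highest value over the lowest of 12.6 for Hey1, 11.7 for Hes1 and 7.38 for Notch1, but 1.22 for Dll4.

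**Figure D1:**
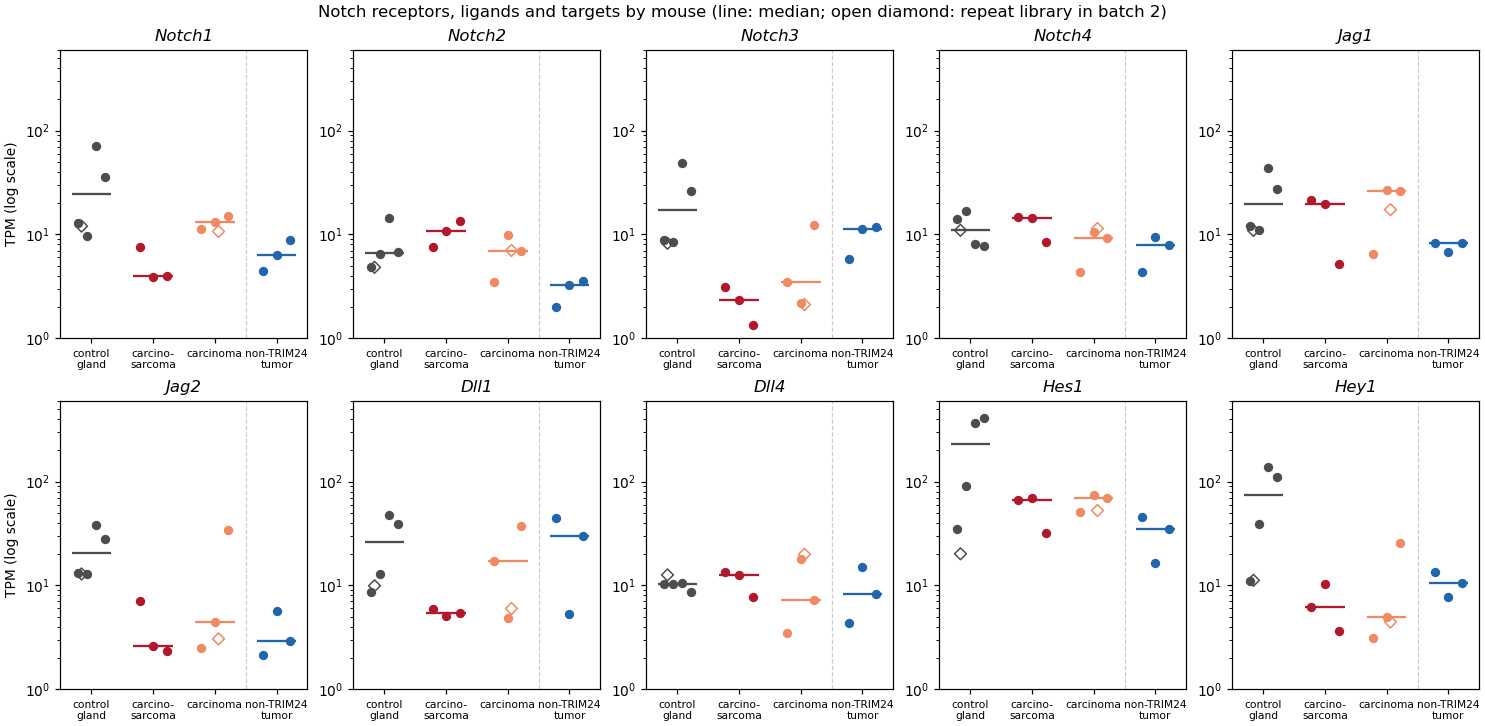
TPM of each member on a log axis, 1 filled point per mouse (first library), with the group median as a line and repeat libraries as open diamonds; non-TRIM24 tumors, right of the dashed line, were sequenced in batch 2. Hes1 is the highest member in all 4 groups, and the control glands span 10.9 to 137.07 TPM for Hey1 but 8.71 to 10.59 TPM for Dll4.

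The first comparison asks how mammary tumors of Trim24COE mice differ from control glands, with 6 tumors against 4 glands. Notch3 and Hey1 fell in the tumors, and none of the 10 members rose. Thus 2 of 10 members were lower at an adjusted p below 0.05, where 9.13% of the 15196 genes tested were called lower and 7.96% higher. All 10 members passed the filter of at least 1 TPM in 4 libraries. The median log2 fold change of the members was -1.25, beside -0.04 over all genes tested, and 9 of the 10 lay below 0. No member separated the 6 tumors from the 4 glands without overlap, as 7.2% of genes tested did downward and 7.39% upward.

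Among the receptors, Notch3, which supports mural cells of small arteries and is also made in luminal progenitors, had 8.82, 8.43, 48.78 and 25.96 TPM in glands 133, 392, 417_3 and 517_3. The carcinosarcomas 64, 567 and 897 had 2.33, 3.12 and 1.33 TPM, and the carcinomas 89, 273_5 and 3956 had 12.27, 3.48 and 2.19 TPM. Tumor 89 was the one tumor within the range of the glands, and the other 5 were below all of them. The level was 23.0 ± 19.0 TPM in glands (SD, n = 4) and 4.12 ± 4.06 TPM in tumors (SD, n = 6). The log2 fold change was -2.14 ± 0.57 (SE, adjusted p = 0.027, limma). Without gland 417_3 it was -1.67 (adjusted p = 0.0746) and without gland 517_3 -1.96 (adjusted p = 0.0764), and leaving out any 1 of the 3 carcinosarcomas also ended the call (adjusted p between 0.0505 and 0.0551).

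Notch1, the receptor tied to luminal fate, had 12.98, 9.71, 71.66 and 36.12 TPM in the same order of glands. Its carcinosarcoma values were 3.92, 7.49 and 3.97 TPM, and its carcinoma values 15.10, 11.23 and 13.18 TPM. The carcinomas thus lay among the values of glands 133 and 392 or just above them, and the 3 carcinosarcomas lay below every gland. The log2 fold change over all 6 tumors was -1.47 ± 0.56 (SE, adjusted p = 0.0951). Notch2, which is broadly expressed, had 4.88 to 14.30 TPM in glands and 3.49 to 13.55 TPM in tumors, a log2 fold change of 0.10 ± 0.37 (adjusted p = 0.886). Notch4, the endothelial receptor, had 7.77 to 16.65 TPM in glands and 4.34 to 14.86 TPM in tumors, and its log2 fold change was -0.17 ± 0.35 (adjusted p = 0.775). For both, the ranges of tumors and glands overlapped, with the highest value in a gland and the lowest in a tumor.

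Of the ligands, Jag2, of the Jagged family, had 13.08, 12.88, 38.41 and 27.97 TPM in glands 133, 392, 417_3 and 517_3. It had 2.62, 7.05 and 2.31 TPM in carcinosarcomas 64, 567 and 897 and 33.96, 2.47 and 4.46 TPM in carcinomas 89, 273_5 and 3956. All tumors other than 89 were below every gland, and tumor 89 was above 3 of the 4. The log2 fold change was -1.78 ± 0.64 (SE, adjusted p = 0.0782), and without tumor 89 it was -2.28 (adjusted p = 0.00514). Tumor 89 also had the highest summed basal marker level of all tumors, 3349 TPM, where the other 5 Trim24COE tumors had 15.17 to 97.55 TPM.

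Dll1, a Delta-like ligand found on mammary basal stem cells, had 8.68, 12.88, 48.09 and 39.05 TPM in the glands, 5.11, 5.89 and 5.46 TPM in the carcinosarcomas and 37.13, 17.14 and 4.87 TPM in the carcinomas. The carcinosarcomas lay close together below every gland, and the carcinomas covered most of the range. Its log2 fold change was -1.16 ± 0.64 (adjusted p = 0.234). Jag1 had 10.92 to 43.67 TPM in glands and 5.17 to 26.65 TPM in tumors (-0.41 ± 0.54, adjusted p = 0.64). Dll4, the ligand of sprouting endothelium, had 10.29, 10.35, 10.59 and 8.71 TPM in the glands, the narrowest spread of any member, and 3.44 to 17.78 TPM in the tumors, with 3 tumors above all glands and 3 below (-0.10 ± 0.37, adjusted p = 0.888).

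Both targets were far apart among the glands. Hey1, a repressor induced by Notch in endothelium and other cells, had 10.90, 38.99, 137.07 and 110.93 TPM in glands 133, 392, 417_3 and 517_3. The carcinosarcomas had 10.22, 6.15 and 3.67 TPM and the carcinomas 25.79, 3.14 and 4.97 TPM. Tumor 89 was the only tumor above gland 133, the lowest gland. The level was 74.5 ± 59.3 TPM in glands (SD, n = 4) and 8.99 ± 8.61 TPM in tumors (SD, n = 6), with a log2 fold change of -2.72 ± 0.71 (SE, adjusted p = 0.0245). The call was lost without gland 417_3 (-2.25, adjusted p = 0.0726) and without gland 517_3 (-2.35, adjusted p = 0.0743).

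Hes1 had 34.81, 90.57, 368.58 and 405.70 TPM in the glands, 69.11, 66.24 and 32.23 TPM in the carcinosarcomas and 69.35, 51.02 and 73.86 TPM in the carcinomas. The 6 tumors lay within 2.29-fold of each other, 5 of them between gland 133 and gland 392 and all below glands 417_3 and 517_3. The log2 fold change was -1.33 ± 0.61 (SE, adjusted p = 0.156), and it passed without gland 133, at -2.02 (adjusted p = 0.0204).

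The split of the glands ran through 8 of the 10 members. The share of all genes with such a split was not computed, so this count has no background beside it. Notch1, Notch2, Notch3, Jag1, Jag2, Dll1, Hes1 and Hey1 were higher in both glands 417_3 and 517_3 than in both glands 133 and 392, by a ratio of means between 1.87 (Notch2) and 6.18 (Hes1). Notch4 was lower in both, with a ratio of 0.515, and Dll4 overlapped, with a ratio of 0.935. All 6 tumors lay below glands 417_3 and 517_3 for Notch1, Notch3, Jag1, Dll1, Hes1 and Hey1. Against glands 133 and 392, 5 of 6 tumors were below both for Notch3, Jag2 and Hey1, 4 for Dll1 and Notch4, 3 for Notch1 and 1 for Hes1. In a comparison chosen after the data were seen, without glands 417_3 and 517_3, 0 of 10 members passed in limma (3209 of 16628 genes did, 5757 at an unadjusted p below 0.05), with log2 fold changes of -1.17 for Notch3 (adjusted p = 0.189), -1.46 for Hey1 (adjusted p = 0.193) and 0.05 for Hes1 (adjusted p = 0.947). Without glands 133 and 392 instead, 4 members were lower in limma, where 1899 of 16351 genes were. Among these members were Hes1 at -2.71 (adjusted p = 0.000852) and Notch1 at -2.51 (adjusted p = 0.015). The part of tissue composition in these values was not tested.

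**Figure D2:**
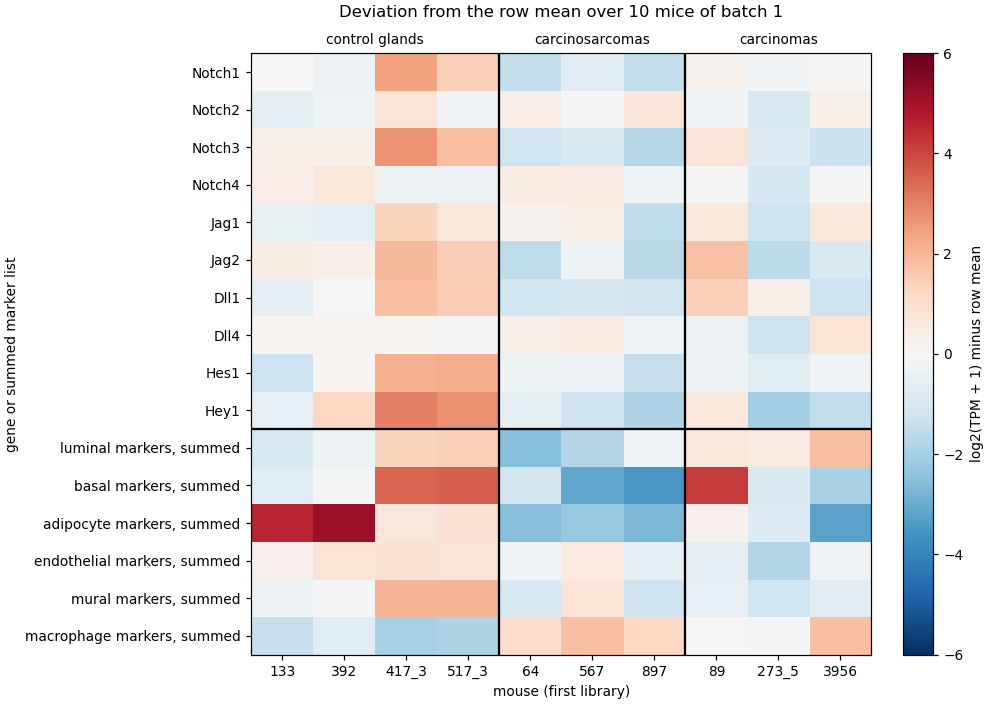
Deviation of log2(TPM + 1) from the row mean over the 10 mice of batch 1, for each member (upper rows) and for the summed TPM of each marker list (lower rows), with red above and blue below the mean. Glands 417_3 and 517_3 are red for Notch1, Notch3, Jag2, Dll1, Hes1 and Hey1 and for the luminal, basal and mural markers. Glands 133 and 392 are red for the adipocyte markers, and tumor 89 alone among tumors is red for Jag2 and the basal markers. In glands 417_3 and 517_3 the mural sum was mostly Acta2 (1413.5 and 1498.4 TPM) and Myh11 (340.35 and 234.61 TPM). Pdgfrb, Rgs5, Cspg4, Kcnj8, Des and Mcam were each lower in both than in glands 133 and 392, and Abcc9 overlapped.

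Markers of other cell types moved between tumors and glands as well. The summed TPM of 12 endothelial markers was 432.31 to 666.44 in glands and 105.26 to 544.91 in Trim24COE tumors, and 5 of the 12 (Vwf, Tek, Kdr, Pecam1 and Erg) fell, with 11 of 12 log2 fold changes below 0 and a median of -1.15. Of 9 mural markers, Pdgfrb rose and Myh11 and Rgs5 fell, with sums of 367.58 to 1878.6 in glands and 191.73 to 798.74 in tumors. Acta2 alone held 1413.5 and 1498.4 TPM of the sums of glands 417_3 and 517_3. Summed luminal markers ranged from 860.17 to 4439.7 in glands and from 285.2 to 5782.4 in tumors, and 2 of 7 (Foxa1 and Elf5) fell. The 5 basal markers, of which Oxtr fell, summed to 112.64 to 2151.8 in glands and 15.17 to 3349 in tumors. Among 8 adipocyte markers, all with log2 fold changes below 0, Fabp4 fell, and their sum was 1730 to 37977 in glands and 114.85 to 1265.6 in tumors. Of 6 macrophage markers 5 rose, and their sum was 458.84 to 1135.2 in glands and 1674.2 to 6229.9 in tumors. The sums of fat and macrophage markers thus separated the tumors from the glands, whereas those of the other lists overlapped, and the part of any cell type in the members' values was not tested. With the mean endothelial marker level as a covariate, 0 of 10 members passed in limma (1367 of 15196 genes did, and 4128 at an unadjusted p below 0.05), at -1.80 for Notch3 (adjusted p = 0.221) and -1.68 for Hey1 (adjusted p = 0.322). With the adipocyte level as a covariate, Hey1 passed, Hes1 passed at -2.56 (adjusted p = 0.0216) and Notch3 missed the threshold at -2.62 (adjusted p = 0.0539). In that limma fit 810 of 15196 genes were called lower and 471 higher.

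Because several members are known in endothelium, each level was also set against the summed endothelial level of its own library. Dll4 was 2.40, 1.61, 1.60 and 1.43% of the endothelial sum in glands 133, 392, 417_3 and 517_3, and 2.499 to 5.78% in the 6 tumors, all above every gland. The difference in mean log2 ratio was 1.02, with a p of 0.0095 in a two-sided exact permutation test, as low as 6 mice against 4 can give. Notch4 was 1.22 to 3.26% in glands and 2.75 to 4.57% in tumors, with a difference of 0.95 (exact permutation p = 0.019), and Notch2 differed by 1.25 (exact permutation p = 0.019). Thus 3 of the 10 members were higher per endothelial level at an unadjusted p below 0.05, and 0 were lower. Leaving out tumor 89 made 3 members lower at that level, Notch3 (-1.71, exact permutation p = 0.0476), Jag2 (-1.43, exact permutation p = 0.0317) and Hey1 (-2.14, exact permutation p = 0.0476), and leaving out gland 133 made Hey1 lower (-2.33, exact permutation p = 0.0476). Over all 6 tumors and 4 glands, 46.4% of all genes tested were higher and 2.57% lower by the same measure. These shares were not computed with a mouse left out, so the counts without tumor 89 or gland 133 have no background beside them. The median over all genes was 1.10 because the endothelial sum itself was lower in tumors by 1.15 on the log2 scale, so 3 of 10 higher is not above the background. The median over the members was -0.15. The other 7 differences ran from -1.74 (Hey1, exact permutation p = 0.0857) to 0.70 (Jag1, exact permutation p = 0.219).

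**Figure D3:**
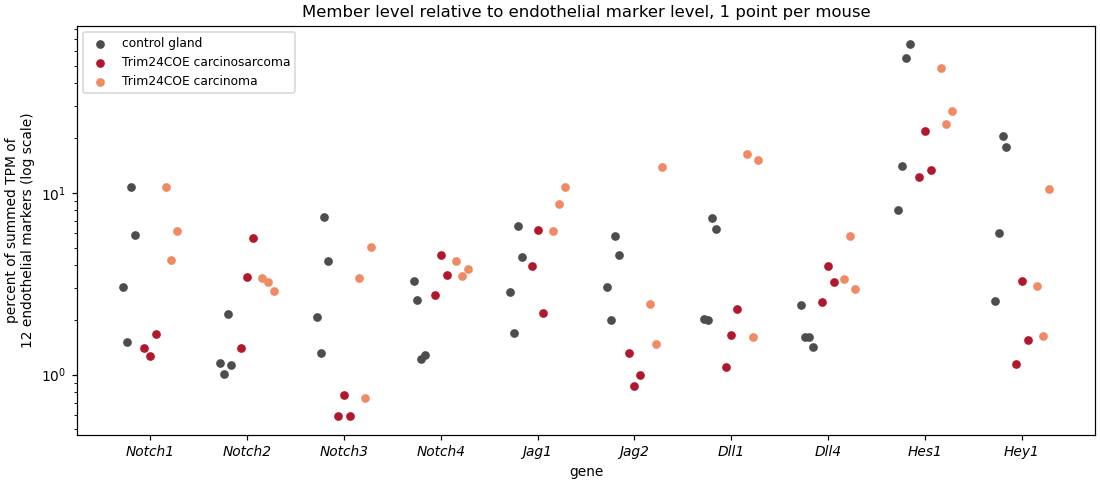
Level of each member as a percent of the summed TPM of 12 endothelial markers in the same library, on a log axis, 1 point per mouse. All 6 tumors lie above the 4 glands for Dll4, and for Hes1 every tumor lies within the range of the glands.

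Carcinosarcomas, tumors with both epithelial and mesenchymal parts, were next compared with control glands, 3 mice against 4. Jag2, Notch3 and Hey1 fell and no member rose, so that 3 of 10 members were lower, where 13.1% of 15287 genes tested were called lower and 9.83% higher. Every carcinosarcoma lay below every gland for 5 members, Notch1, Notch3, Jag2, Dll1 and Hey1, a separation that 21.6% of genes tested showed in that direction. The control glands are those of the first comparison, and the values above are the ones tested. As given above, Trim24 itself was no higher in these 3 libraries than in the lowest gland. Jag2 had 3.99 ± 2.65 TPM in carcinosarcomas (SD, n = 3) and 23.1 ± 12.4 TPM in glands (SD, n = 4), a log2 fold change of -2.24 ± 0.50 (SE, adjusted p = 0.0166). Notch3 changed by -2.56 ± 0.61 (SE, adjusted p = 0.0214) and Hey1 by -2.85 ± 0.81 (SE, adjusted p = 0.0391).

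For Notch1 (-2.09 ± 0.65, adjusted p = 0.0527) and Dll1 (-1.81 ± 0.58, adjusted p = 0.0553) the test was narrowly missed, and Hes1 was further from it (-1.47 ± 0.84, adjusted p = 0.24). The other 4 members had log2 fold changes between -0.57 (Jag1) and 0.41 (Notch2). The median over the 10 members was -1.64, beside -0.12 over all genes. Without tumor 64 or without tumor 897, 0 members passed, out of 1345 and 2185 genes called (4363 and 5196 at an unadjusted p below 0.05). Without tumor 567, 1 member was lower, where 1107 of 16506 genes were. Without gland 417_3, 2 were lower (1474 of 14747 genes), and without gland 517_3, 1 was (1466 of 14906 genes). Without glands 417_3 and 517_3 together 2 members were lower, where 2770 of 15815 genes were. Without glands 133 and 392 together 6 were, where 3943 of 15538 genes were. Among marker lists, 3 of 5 basal and 5 of 7 luminal markers fell in the same comparison, with median log2 fold changes of -4.15 and -3.84, and 2 of 12 endothelial markers fell, with a median of -0.80. Of the 9 mural markers, Myh11 (-5.68, adjusted p = 0.00905) and Rgs5 (-1.90, adjusted p = 0.00714) fell and Pdgfrb (2.00, adjusted p = 0.0201) rose in limma, with a median of -0.20 over the list and sums of 191.73 to 798.74 TPM in carcinosarcomas against 367.58 to 1878.6 TPM in glands. Of 6 macrophage markers 4 rose, with a median of 2.64, and of 8 adipocyte markers Fabp4 fell, with a median of -4.77. The summed TPM of macrophage markers was 3645.4 to 6229.9 in carcinosarcomas and that of adipocyte markers 166.79 to 222.1, both outside the ranges of the glands. The part of these lists in the members' values was not tested.

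Carcinomas were compared with the same glands, 3 mice against 4. No member passed (limma), where 3.5% of 15479 genes did, and 2 members, Notch3 and Hey1, had an unadjusted p below 0.05, as did 21.5% of all genes tested. Notch3 was 5.98 ± 5.49 TPM in carcinomas (SD, n = 3), a log2 fold change of -1.71 ± 0.73 (adjusted p = 0.223). Hey1 was 11.3 ± 12.6 TPM (SD, n = 3), with -2.58 ± 0.96 (adjusted p = 0.17). All 10 log2 fold changes were below 0, from -2.58 to -0.22, with a median of -0.67 beside 0.02 over all genes. The carcinomas were not alike: tumor 89 had 33.96 TPM of Jag2 and 37.13 TPM of Dll1, tumor 273_5 had 2.47 and 17.14 TPM, and tumor 3956 had 4.46 and 4.87 TPM.

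**Figure D4:**
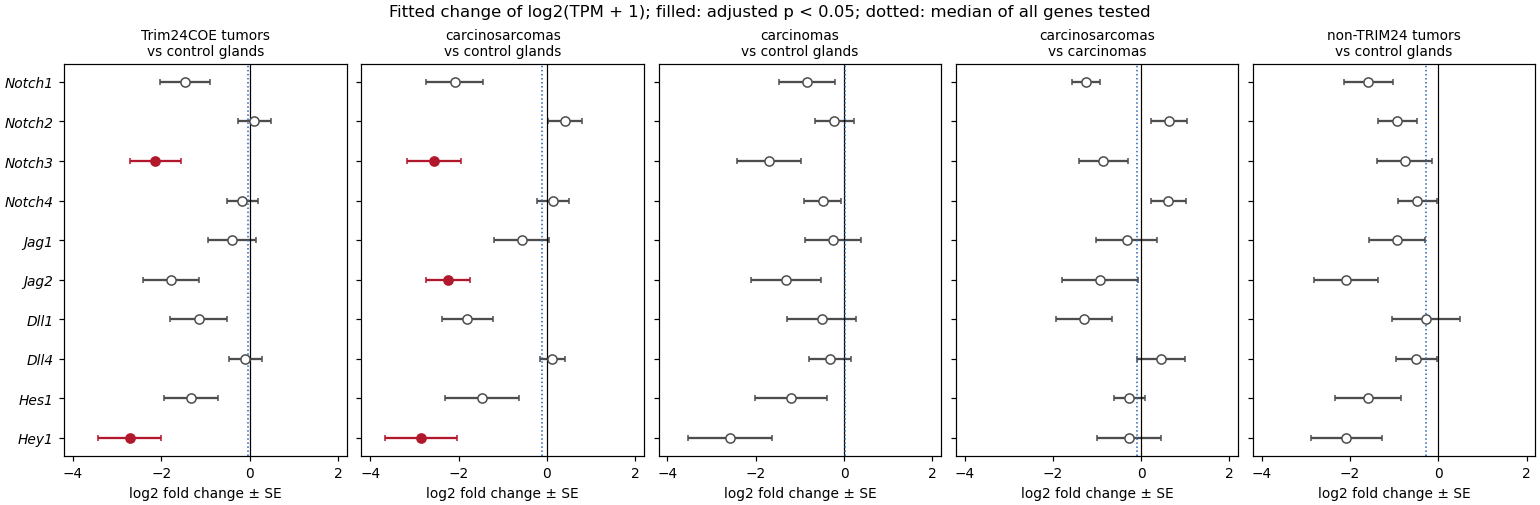
Fitted log2 fold change of log2(TPM + 1) with its SE for each member in 5 comparisons, filled red where the adjusted p was below 0.05, with the median of all genes tested as a dotted line. Notch3 and Hey1 are filled for all Trim24COE tumors against glands, Notch3, Jag2 and Hey1 for carcinosarcomas against glands, and no member is filled in the other panels.

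To see whether the classes of Trim24COE tumor differ, carcinosarcomas were set against carcinomas, 3 mice each. The classes are those of the labels. Tumors 89 and 3956, labelled carcinoma, were called carcinosarcoma by one pathologist of the study and carcinoma by the other. Tumor 567, labelled carcinosarcoma, was called spindle cell carcinoma by the former and carcinosarcoma by the latter. No member passed (limma), where 0.698% of 14193 genes did. Notch1 alone had an unadjusted p below 0.05, as did 2126 of the 14193 genes. It had 5.13 ± 2.05 TPM in carcinosarcomas and 13.2 ± 1.94 TPM in carcinomas (SD, n = 3 each), with every carcinosarcoma below every carcinoma, a separation found in 14.4% of genes tested. The log2 fold change was -1.25 ± 0.32 (SE, adjusted p = 0.183). Over the 10 members the log2 fold changes ran from -1.30 (Dll1) to 0.63 (Notch2), with a median of -0.30 beside -0.10 over all genes. An exception in spread was Dll1, at 5.11 to 5.89 TPM in carcinosarcomas and 4.87 to 37.13 TPM in carcinomas.

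Non-TRIM24 tumors were compared with control glands in a fit over all 15 libraries with a term for batch, for which gland 133 and tumor 3956, with libraries in both batches, are the only link. No member passed (limma), where 0.709% of 16775 genes did, and Notch1, Jag2 and Hey1 had an unadjusted p below 0.05, as 19.3% of genes did. Jag2 was 2.12, 5.66 and 2.94 TPM in tumors 219, FVB001 and FVB002, all below the lowest gland, and its log2 fold change was -2.09 ± 0.73 (SE, adjusted p = 0.164). Notch1 was 4.47, 6.34 and 8.76 TPM (-1.58 ± 0.56, adjusted p = 0.167), also below every gland. For both genes these TPM are not adjusted for batch, and the share of all genes below every gland was not computed. Hey1 was 13.48, 7.71 and 10.63 TPM (-2.09 ± 0.80, adjusted p = 0.194). All 10 log2 fold changes were below 0, with a median of -0.93 beside -0.27 over all genes. Dll1 was high in 2 of the 3, at 44.50 TPM in tumor 219 and 29.84 TPM in FVB002 against 5.29 TPM in FVB001. Without the batch term Jag2 passed in limma (-2.32, adjusted p = 0.0392). In that fit 672 of 15311 genes were called lower, against 85 of 16775 with the term.

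In the same fit carcinomas and non-TRIM24 tumors differed in 0 members (limma), at 0.0298% of 16775 genes called and 17.6% at an unadjusted p below 0.05, where 0 members were. The log2 fold changes, carcinomas over non-TRIM24 tumors, ran from -0.94 (Notch3) to 0.72 (Notch1), with a median of 0.31 beside 0.27 over all genes. Notch3 was 5.75, 11.37 and 11.89 TPM in the non-TRIM24 tumors, and 2.19 to 12.27 TPM in the carcinomas (-0.94 ± 0.66, adjusted p = 0.451).

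The wider pathway was read from a list of 52 other genes, of which 48 passed the filter in the first comparison. Of these 48, 3 fell and 0 rose in Trim24COE tumors, beside the 9.13% and 7.96% of all genes, and the median log2 fold change was -0.15. Dtx1, a Deltex ubiquitin ligase that acts on Notch receptors, had 3.3, 5.24, 7.78 and 6.83 TPM in glands 133, 392, 417_3 and 517_3. It had 0.44, 1.06 and 0.27 TPM in carcinosarcomas 64, 567 and 897 and 2.63, 0.97 and 0.11 TPM in carcinomas 89, 273_5 and 3956. All tumors were below all glands, and the log2 fold change was -1.90 ± 0.36 (SE, adjusted p = 0.00555).

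Mib2, a ligase that drives the endocytosis of ligands, had 21.58 to 33.09 TPM in glands and 8.31 to 23.12 TPM in tumors, with a log2 fold change of -1.01 ± 0.28 (adjusted p = 0.0301). Maml2, a Mastermind coactivator of the RBPJ complex, had 5.74, 10.82, 28.18 and 18.4 TPM in the glands and 2.05 to 6.78 TPM in the tumors (-1.53 ± 0.41, adjusted p = 0.0269). Tumor 89 was the one tumor within the range of the glands for both. By role, 0 of 10 processing proteases, 0 of 5 fringe and O-glycosyltransferase genes, 0 of 4 corepressors, 0 of 6 other targets and 0 of 2 other ligands passed the test (limma), with 2, 1, 0, 2 and 0 of them at an unadjusted p below 0.05. Of all 15196 genes tested, 4953 were at that level. In carcinosarcomas against glands 5 of the 48 fell and 1 rose, beside 13.1% and 9.83% of all genes. Besides Dtx1, Mib2 and Maml2 these were Numb and Dtx3, which fell, and Numbl, which rose; the last 3 are named after their values were seen. Numb, an endocytic inhibitor of Notch receptors, was 6.96 to 10.4 TPM in carcinosarcomas and 16.15 to 50.89 TPM in glands (-1.67 ± 0.39, adjusted p = 0.0206), and its paralog Numbl was 17.12 to 26.71 TPM in carcinosarcomas and 5.58 to 10.89 TPM in glands (1.19 ± 0.31, adjusted p = 0.0292).

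The genes whose levels ran most like each member over the 10 mice of batch 1 are given as a description, since all share the same libraries and tissue mixture. Jag2 was most like Krt5, a basal keratin, with a Pearson r of 0.981 for log2(TPM + 1), followed by Ighv4-2 and Trim29 at 0.974 each. Notch1 was most like Kif13a (0.988), Sptb (0.986) and Itpr1 (0.986), and Notch3 most like Casz1 (0.984), Wnk2 (0.983) and Fryl (0.982). The coefficients were thus close to 1 for both, with no gene of the pathway among those named. Notch4 was most like Gamt (0.963), Adam15 (0.953) and Kbtbd11 (0.95), and Notch2 most like Wdr19 (0.91), Samd4 (0.908) and Zfp91 (0.886). Among ligands, Jag1 ran with Epb41l3 (0.964), Cbx8 (0.959) and Znrf1 (0.957), Dll1 with Ccrl2 (0.971), Calml3 (0.966) and Foxc1 (0.966), and Dll4 with Trim35 (0.97), Pdp1 (0.935) and Zfand3 (0.933). Notch2 had the lowest leading coefficient of the 10 members. Hes1 ran with Zc3h3 (0.976), Bag3 (0.966) and Mafk (0.958), and Hey1 with Dnase1l3 (0.985), Csmd1 (0.975) and Pkp4 (0.974). Among pairs of members the highest coefficients were those of Notch3 with Hey1 (0.931), Jag2 (0.924) and Notch1 (0.91), and the lowest that of Notch4 with Dll1 (-0.477).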

How the data were processed

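Bulk RNA-seq of mouse mammary tissue was read from 2 deposited tables of TPM, 1 per sequencing batch. According to the study's methods the authors aligned reads to GRCm38 with STAR and the GENCODE M14 annotation and estimated TPM with RSEM, whereas the labels name TopHat, Cufflinks, RSEM and mm10. The 2 sources also name different extraction and library kits, so strand use is not settled. TPM keep no depth, so no counting error can be given; counts were not used here.

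Groups were taken from the labels. The study's pathologists did not class every tumor alike, and the labelled class was used. log2(TPM + 1) was fitted with limma 3.58.1 (lmFit, eBayes with trend) in R 4.3.3, two-sided, with Benjamini-Hochberg adjustment over all genes tested and calls at an adjusted p below 0.05. Genes had to reach 1 TPM in a number of libraries equal to the mice of the smaller group. Fold changes are on this scale and understate low genes. Comparisons within batch 1 used first libraries only. Those with non-TRIM24 tumors used all libraries, a batch term and a correlation of 0.951 between libraries of a mouse, also where a mouse was left out. Ratios to endothelial markers, with 0.1 TPM added to the member, were compared by exact permutation tests over mice in scipy 1.17.1, for 10 members, with no adjustment.

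The members, gene lists and tests were chosen with earlier results of these data known. Named were the members in every comparison, pathway genes past the threshold in the first comparison or between tumor classes, markers, and for each member the 3 genes with the highest r. Fits were tested on simulated data. Alternatives changed pseudocount, filter, scaling, covariates, samples in the fit, use of repeats and the batch term, or left out each mouse. The mice are separate animals, but the labels do not say whether any were littermates.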

Additional observations from a re-analysis of the deposited data

Results flagged for a closer look

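In 4 of the 20 sets of samples examined (10 members in the 4 control glands and in the 6 Trim24COE tumors), 1 mouse stood further from the others than Dixon's 95% limit for its gap over the range. Chance gives about 1 in 20 for normal values in separate sets. Here TPM without logs were used, and the sets share mice and members that ran together (r of 0.931 for Notch3 with Hey1 and 0.924 with Jag2). No excess over chance can be read from the count. Tumor 89 was the highest Trim24COE tumor for Notch3 (12.27 TPM, gap 0.803 of the range), Jag2 (33.96 TPM, 0.85) and Hey1 (25.79 TPM, 0.687). Its summed basal marker level, 3349 TPM, was also the highest of the tumors, and the part of that in these values was not tested. Gland 517_3 was the lowest control gland for Dll4 (8.71 TPM, 0.84), in a group that spans 1.22-fold.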

How the results depend on the processing

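Depth is unknown, groups hold 3 to 6 mice, and the calls of Notch3 and Hey1 over all tumors were lost without gland 417_3 and without gland 517_3. Of the members' single fold changes, 301 settings kept both direction and side of the threshold, 31 lost the threshold, 19 gained it and 14 turned direction. No paired analysis was possible because no mouse number is shared between groups.

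For Trim24COE tumors against glands, with 2597 genes and 2 members past the threshold, the endothelial covariate gave 1367 genes and 0 members and the adipocyte covariate 1281 genes. Without the filter 0 members passed, as more genes were tested, and without glands 417_3 and 517_3 also 0. Without glands 133 and 392, 4 were lower, where 1899 of 16351 genes were. Both omissions of glands were chosen after seeing the data. The 3 other pathway genes, of 48 tested, became 7 under median-ratio scaling, where 2898 of 15202 genes were called. They became 6 without glands 417_3 and 517_3, where 3209 of 16628 genes were called. Without glands 133 and 392 they were also 6, where 2653 of 16351 genes were called. Leaving out 1 mouse gave 1779 to 2911 genes, 0 to 3 members and 1 to 6 other pathway genes. Direction turned for Notch2 (-0.46 adipocyte covariate, -0.27 without glands 133 and 392), Notch4 (0.095 adipocyte covariate, 0.52 endothelial covariate, 0.26 without glands 133 and 392), Jag1 (0.89 endothelial covariate, 0.34 without glands 417_3 and 517_3), Dll4 (0.87 endothelial covariate) and Hes1 (0.047 without glands 417_3 and 517_3). With 1 mouse left out the values were -0.078 to 0.38 for Notch2, -0.32 to 0.028 for Notch4 and -0.27 to 0.14 for Dll4. The cause was not tested.

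For carcinosarcomas against glands (3511 of 15287 genes, 3 members, 6 other pathway genes), no filter gave 1623 of 39123 genes and 0 members. Median-ratio scaling gave 4142 of 15273 genes and 5 members. Omitting glands 133 and 392 gave 5837 of 15538 genes, 6 members and 14 other pathway genes. Omitting glands 417_3 and 517_3 gave 5048 of 15815 genes, 2 members and 10 other pathway genes. Leaving out 1 mouse gave 1345 (without tumor 64) to 3093 genes, 0 to 6 members and 1 to 6 other pathway genes. Carcinomas against glands had 542 genes, 46 without the filter, 1170 with all groups of batch 1 in the fit and 72 (without gland 517_3) to 526 with 1 mouse left out. Carcinosarcomas against carcinomas had 99 genes, 0 without the filter (limma, 2871 at an unadjusted p below 0.05) and 0 (without tumor 64, 1143 at that level, or 89, 1495) to 293 (without tumor 3956) with 1 mouse left out. In these comparisons 0 members passed under any setting.

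For non-TRIM24 tumors against glands, 119 genes became 48 without the filter, 18 with libraries not linked, 907 with 1 member without the batch term, and 7 (without FVB002) to 476 (without gland 133) with 1 mouse left out; median-ratio scaling gave 180, with 83 higher and 97 lower against 34 higher and 85 lower. That scaling moved the median of all genes from -0.27 to -0.03 here and from 0.27 to -0.04 for carcinomas against non-TRIM24 tumors. There 5 genes became 2 with a pseudocount of 0.1, 12 without the filter, 3 with libraries not linked, 985 without the batch term and 2 to 83 (without tumor 219) with 1 mouse left out.

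Among ratios to endothelial markers, those of Notch2, Notch4 and Dll4 kept their direction and side of the threshold in every setting run. With 1 mouse left out the others spanned -0.90 to 0.041 (Notch1), -0.55 to 0.23 (Dll1), -0.74 to 0.26 (Hes1), -1.71 to -0.88 (Notch3), -1.43 to -0.62 (Jag2) and -2.33 to -1.32 (Hey1), and Notch3, Jag2 and Hey1 passed without tumor 89 and Hey1 without gland 133. The share of all genes passing was not computed with a mouse left out.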
